A study of Mus musculus with 2 samples.

Results

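The cells examined were those that the deposited cell table annotates as Gut Mesenchyme/Amniotic Mesoderm, a type name that joins the mesoderm around the gut tube with that of the amnion. The annotation selected 674 of 5678 cells, and every one of them was found in the deposited count matrices. They came from mouse embryos at E11.5, with 259 cells in suspension F0_8, 171 cells in F0_9, 97 cells in F1_1 and 147 cells in F1_mix. F0_8 and F0_9 were each made from 1 founder embryo, which had received mPBase transposase mRNA by electroporation and a piggyBac donor plasmid by microinjection as a fertilized egg. F1_1 came from 1 F1 embryo, while F1_mix had been put together artificially from cells of F1 embryos and was counted as 1 sample. The labels give no strain. All groups carried the same kind of transgene, EGFP under the broadly active CAG promoter linked to a DNA barcode, and no group without it was analysed here. Placenta and yolk sac had been removed before dissociation. The suspensions were tagged with multiplexing oligos, sorted to remove debris and captured as 1 droplet library.

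Mesenchyme is the loose, migratory tissue that fills the embryo between its epithelia. Splanchnic mesenchyme wraps the gut tube, answers Hedgehog signals from the endoderm through the transcription factors Foxf1 and Gata4, and gives rise to smooth muscle and connective tissue. Mesenchyme of the trunk, limbs and face comes from somites, lateral plate and neural crest, and its place of origin can often be read from homeobox genes such as the Hox genes, whose order along the chromosome follows the body axis.

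The type was sampled well for single cells. The 674 cells held 9055614 gene UMIs (unique molecular identifiers, each counted as 1 captured transcript), between 1395834 in F1_1 and 3286472 in F0_8. The median cell had 13392.5 gene UMIs and 4388 genes, with medians from 12354 to 14282 UMIs by suspension. Of these cells 12 had 5% or more mitochondrial UMIs and 6 had fewer than 5000 gene UMIs. No cell barcode was shared between suspensions. Levels below are UMIs per 10000 gene UMIs, summed over the cells of a type within a suspension, with exact Poisson 95% intervals that cover counting error only. Runs of 4 values follow the order F0_8, F0_9, F1_1, F1_mix. The tag counts 3′ ends, so a level was compared between samples and types and not between genes. In such sums, fewer expressing cells and less RNA per cell cannot be told apart. With 1 suspension per founder embryo, the p-values below measure the spread between suspensions only. The Y-linked genes summed to 3.13, 0.0266, 0.00718 and 1.91, so each generation held a suspension with them and one nearly without.

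Sequences just upstream of 3 genes are shown because regulators of position were among the genes that led the sub-clusters of this type. Tcf21, a transcription factor of visceral and epicardial mesenchyme, had 98.8% of its UMIs in a single sub-cluster, and the 5′-most Hox genes Hoxd13 and Hoxa13, which pattern the distal limb and the hindmost trunk, led another. The 250 bases before each start site are taken from RefSeq on GRCm38.p6. Tcf21 lies on the minus strand at chr10:22820144-22820393, Hoxd13 on the plus strand at chr2:74667975-74668224 and Hoxa13 on the minus strand at chr6:52260881-52261130. Capitals mark matches, on either strand, to a TATA box (TATAAA), a GC box (GGGCGG) or a GATA motif (AGATAA), and overlapping matches run together.
Tcf21: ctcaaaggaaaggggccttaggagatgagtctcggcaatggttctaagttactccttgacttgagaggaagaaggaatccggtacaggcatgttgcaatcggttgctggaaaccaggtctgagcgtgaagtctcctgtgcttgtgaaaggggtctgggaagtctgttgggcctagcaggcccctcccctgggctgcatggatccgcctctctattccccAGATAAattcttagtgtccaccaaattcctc
Hoxd13: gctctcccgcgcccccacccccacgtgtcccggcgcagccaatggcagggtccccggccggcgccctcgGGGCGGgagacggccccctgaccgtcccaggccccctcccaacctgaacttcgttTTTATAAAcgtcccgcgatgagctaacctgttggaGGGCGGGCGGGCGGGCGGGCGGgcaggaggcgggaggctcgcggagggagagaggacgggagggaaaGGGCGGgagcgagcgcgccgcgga
Hoxa13: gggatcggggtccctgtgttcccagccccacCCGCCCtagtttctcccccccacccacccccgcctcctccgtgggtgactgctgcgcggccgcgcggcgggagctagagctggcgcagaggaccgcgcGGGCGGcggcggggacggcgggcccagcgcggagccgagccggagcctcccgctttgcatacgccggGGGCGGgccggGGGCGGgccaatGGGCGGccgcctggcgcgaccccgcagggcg
The Tcf21 window held 1 GATA match, 31 bases before the start, and none of the other motifs. The Hoxd13 window held 7 GC boxes, 5 of them in an overlapping run, and 2 overlapping TATA matches on opposite strands. The Hoxa13 window held 5 GC boxes and no TATA match. Its bases were 80.0% G or C, against 74.4% for Hoxd13, 52.4% for Tcf21 and a median of 52.4% over all 32851 upstream windows of the same length. Of those windows 12.4% held the TATA box, 32.7% the GC box and 9.99% the GATA motif. These matches describe the letters only.

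The marker genes of the name were expressed, but in a minority of the cells and not at levels that set them apart. Foxf1, the splanchnic regulator, gave at least 1 UMI in 98 of the 674 cells (14.5%), the T-box factor Tbx18 in 149 (22.1%), Postn, which encodes the matrix protein periostin, in 131 (19.4%) and Hand1, a factor of extraembryonic and lateral plate mesoderm, in 23 (3.41%). In 342 cells (50.7%) none of these genes was detected. CNS Neuron cells, which should lack these genes, gave a Foxf1 UMI in 0.188% of 532 cells, a Postn UMI in 0.564% and a Hand1 UMI in 0.376%, at a median depth of 10898.5 against 13392.5 UMIs. Of those cells 0 of 532 held a Tbx18 UMI, which allows a share of up to 0.564% by 3 counts, while the exact 95% upper limit is 0.691%.

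Foxf1 was higher in both F1 suspensions than in both founders within this type. Its level was 0.335 and 0.146 in the founders F0_8 and F0_9, and 0.704 and 0.785 in F1_1 and F1_mix. Pooled, the type stood at 0.450, against 0.381 in Mesodermal Progenitor, 0.339 in Chondrocyte and 0.231 in Myoblast/Cardiomyocyte cells, and was the highest of 12 types of adequate depth. In the founders, however, Chondrocyte cells were above it (0.425 in F0_8 and 0.457 in F0_9), as were Mesodermal Progenitor cells in F0_9 (0.301).

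The other markers did not single out the type. Tbx18 was at 0.469, 0.706, 0.438 and 0.496 in F0_8, F0_9, F1_1 and F1_mix, while Chondrocyte cells had 0.361, 0.653, 0.694 and 0.749. Postn was at 0.490, 0.395, 0.251 and 0.326, below Chondrocyte in 3 of the suspensions, and the highest pooled level, 1.49, was in Ependymal Cell. Hand1 was at 0.0792, 0.0222, 0.0359 and 0.142, a level at which Chondrocyte cells pooled were higher (0.0913 against 0.0730). Foxf1 and Tbx18 were together in 13 cells, Foxf1 and Postn in 21, and Foxf1 and Hand1 in 13, which is 13 of the 23 cells with Hand1. The data therefore did not separate these cells from the neighbouring types by the markers of their name, and they are called below by the annotation.

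**Figure D1:**
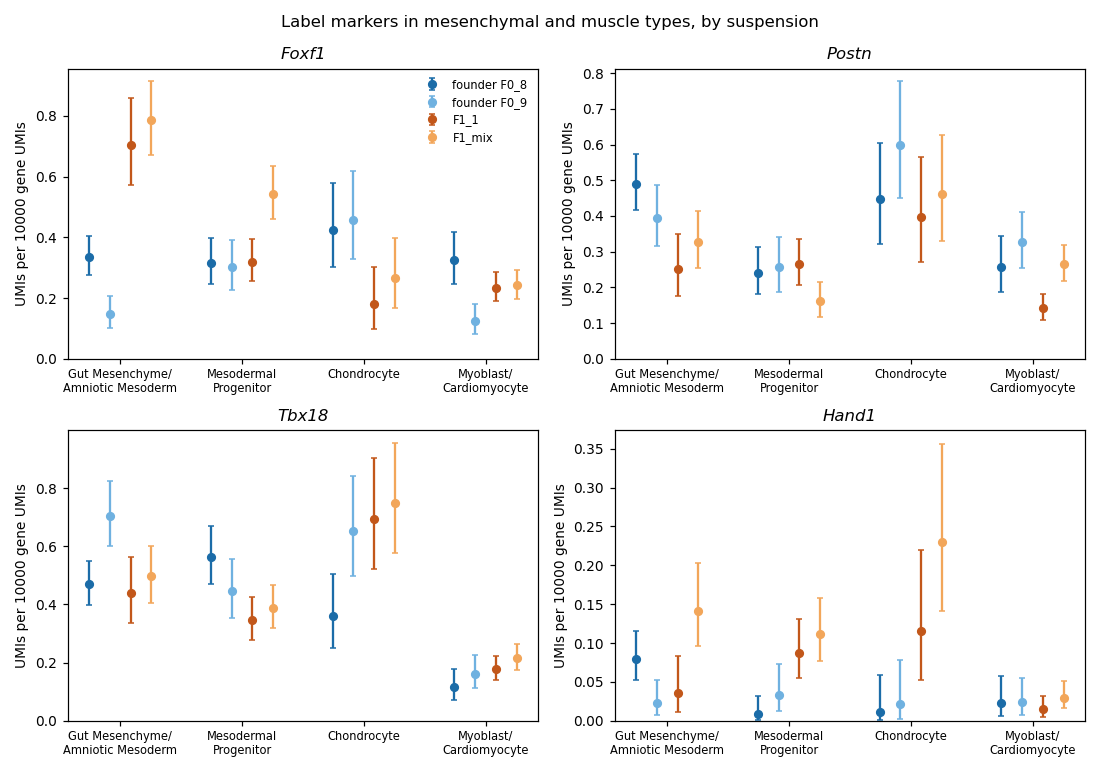
Levels of Foxf1, Postn, Tbx18 and Hand1 (UMIs per 10000 gene UMIs, linear axes from 0) in Gut Mesenchyme/Amniotic Mesoderm and 3 other types, with 1 point per suspension and exact Poisson 95% intervals. Foxf1 was at 0.704 and 0.785 in the F1 suspensions of the type and at 0.335 and 0.146 in its founders, and the ranges of Tbx18, Postn and Hand1 overlapped those of Chondrocyte.

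Lists of genes for other cell types differed widely in level. The endothelial list of 6 genes summed to between 0.00887 and 0.101 by suspension, with Cdh5 and Tie1 at 0, and the macrophage list to at most 0.0365. The hepatocyte list did not pass 0.0396. The neuronal list of 6 genes summed to 1.92, 1.61, 1.06 and 1.21 in F0_8, F0_9, F1_1 and F1_mix, above Mesodermal Progenitor cells in each suspension (0.817 to 1.18), and the erythroid list to between 1.21 and 1.44, near the 1.18 to 1.36 there. The limb list of 11 genes summed to between 7.91 and 11.5, below Mesodermal Progenitor cells in each suspension (11.6 to 13.8), and the cartilage list is given below. The 10 splanchnic genes summed to 2.50, 2.30, 3.32 and 4.76 in F0_8, F0_9, F1_1 and F1_mix, and to between 2.48 and 3.59 in Chondrocyte cells, so that both F1 values, and neither founder value, lay above both other mesenchymal types of the same suspension. The 6 genes of amniotic and extraembryonic mesoderm summed to between 1.36 and 1.93, below the Chondrocyte cells in each suspension (2.16 to 2.54).

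The profile as a whole was nearest to that of the annotated Chondrocyte cells. Over the 2000 genes that varied most between types, the correlation of log2 levels across genes was 0.717 to 0.812 with Chondrocyte by suspension, 0.482 to 0.585 with Mesodermal Progenitor and 0.343 to 0.494 with Myoblast/Cardiomyocyte, where genes are not independent replicates and all types share the library. Since the types are clusters of these same expression values, the comparisons between types that follow are descriptions, with no test. A gene was counted when it was 2-fold or more higher or lower, on levels with 0.1 added, in all 4 suspensions.

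Against Mesodermal Progenitor cells, the difference ran almost entirely one way, and the genes that were lower included genes of cell division. There were 203 genes lower in Gut Mesenchyme/Amniotic Mesoderm (2.25% of 9004) and 4 higher (0.0444%), and the median log2 difference over all genes was 0.04. Of 19 listed division genes, 11 were among those lower and 0 among those higher, with a median log2 difference of -1.94. Together they summed to between 15.8 and 17.7 by suspension, against 43.9 to 48.7 in Mesodermal Progenitor cells. Birc5, which encodes survivin, a protein of the mitotic spindle, was at 0.457, 0.408, 0.704 and 0.652 in F0_8, F0_9, F1_1 and F1_mix, and no Mesodermal Progenitor suspension was below 4.02. Cdc20, an activator of the complex that ends mitosis, was at 0.107, 0.0621, 0.108 and 0.184 against 1.87 to 2.18. Chondrocyte cells were like the present type in this respect, with a sum of 11.9 to 15.1 and none of 16 division genes past 2-fold.

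The 4 genes that were 2-fold higher than in Mesodermal Progenitor cells were Sulf1, Mxd4, Sema3d and Nkain2. Sulf1, which trims sulphate from heparan chains and so tunes Wnt, BMP and FGF signals, was at 3.61, 4.26, 2.63 and 2.58, against 1.06 to 1.57. Mxd4, an antagonist of Myc, was at 1.17, 1.14, 1.17 and 1.29 against 0.388 to 0.424. Sema3d, a secreted guidance cue, averaged 0.755 against 0.207, and Nkain2 0.893 against 0.230.

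Against Chondrocyte cells, some transcription factors of cartilage were higher and some genes of fibrous and contractile tissue were lower in Gut Mesenchyme/Amniotic Mesoderm. Of 5 cartilage genes with enough UMIs 2 were 2-fold higher, and of 20 fibrillar matrix genes 3 were 2-fold lower. There were 27 genes higher (0.325% of 8297) and 19 lower (0.229%), with a median log2 difference of 0.10 over all genes. The 2 cartilage genes were Sox5 and Sox6, which act with Sox9 to turn on the cartilage programme. Sox6 was at 4.11, 4.19, 1.72 and 2.44 against 1.20, 0.936, 0.668 and 0.587 in F0_8, F0_9, F1_1 and F1_mix. Runx2, a regulator of bone formation, averaged 1.11 against 0.270, and Prdm16 1.41 against 0.272. The cartilage list of 7 genes as a whole summed to 20.5, 19.7, 11.7 and 12.7, above the 12.9, 11.6, 6.49 and 8.41 of the cells named Chondrocyte. Sub-cluster 7 of the type, 1 of the 9 groups into which its cells divided, had 48.3 for this list against 14.1 in the rest. The list was at 15.96, 15.5, 11.5 and 12.4 without sub-clusters 7 and 9, and Sox6 but not Sox5 was still 2-fold higher in every suspension.

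On the lower side, Lum, encoding the collagen-binding proteoglycan lumican, averaged 0.642 against 2.39, Cthrc1 1.05 against 3.47, and the adhesive glycoprotein gene Vtn 0.0237 against 1.48. Of the 7 smooth muscle genes, 2 of the 3 with enough UMIs were 2-fold lower, namely Acta2 and Tagln, which encode contractile proteins. Tagln was at 0.198, 0.315, 0.531 and 0.227 against 0.702, 2.56, 3.11 and 1.74. The 22 fibrillar matrix genes summed to between 41.2 and 46.7, against 67.2 to 74.5 in Chondrocyte and 30.2 to 37.1 in Mesodermal Progenitor cells, which places the type between them.

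Against Myoblast/Cardiomyocyte cells 153 genes were 2-fold higher in the type (1.71% of 8923) and 115 lower (1.29%), and the median log2 difference was 0.14. Among those higher were 4 of 5 cartilage genes and 8 of 32 mesenchymal transcription factors, and among those lower were 11 of the 19 division genes. The matrix sum there was 19.3 to 22.0.

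No gene was 2-fold higher, or 2-fold lower, than all 3 compared types in every suspension. At any size, 883 of 8278 genes were higher than all 3 types in every suspension and 390 of 5512 were lower. The widest of these was Sulf1, 1.69-fold above the nearest type in its least favourable suspension. It was followed by Rtl4, the adhesion receptor gene Adgrl3 and Col25a1. Col25a1, a membrane-bound collagen, was at 4.52, 4.38, 2.84 and 2.86, where Mesodermal Progenitor cells had 2.84, 1.84, 1.63 and 1.90. The widest on the lower side was the tubulin gene Tubb4b, at 0.728, 0.794, 0.905 and 0.927 against no less than 1.60 in any other type and suspension, followed by Birc5, Tuba1b and the chaperone gene Hspa8.

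Against all 8 other types with enough cells, 160 genes were highest in this type in every suspension, and these differences were modest. Col25a1 led here, with Rtl4, the translational regulator Samd4, the matrix protease gene Adamts9, Sned1, Hs3st3b1, Ltbp1 and Ssbp2 after it. The lead of Col25a1, 0.57 on the log2 scale in its least favourable suspension, was 0.0086 without sub-clusters 7 and 9. Ltbp1, which tethers latent TGF-beta to the matrix, was at 2.81, 2.22, 1.94 and 2.02 against 1.44 to 1.74 in Mesodermal Progenitor cells. Adamts9 was at 1.08, 1.05, 1.69 and 1.19 against 0.340 to 1.01 in Chondrocyte cells. Ssbp2 was 1.25-fold above the nearest type in its least favourable suspension, so the lead of these genes was small even where it held throughout.

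The cells divided into 9 sub-clusters of 43 to 113 cells, which are numbered by size and were given no type name. As clusters of the same values, their leading genes describe them and carry no test. Each was found in all 4 suspensions, although F1_1 had a single cell in sub-clusters 7 and 9.

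Sub-cluster 2, with 108 cells, was led by regulators of visceral mesoderm. Tcf21 was at 1.04, where the cells outside it together had 0.00270, Gata6 was at 1.28 and Gata4 at 0.666, and Wt1, a regulator of mesothelium and kidney, was at 0.989. Foxf1 was at 1.40 and was detected in 38.0% of these cells, which held 56.5% of the Foxf1 UMIs of the type. Tbx20, Nkx2-3 and Upk3b, which mark heart and gut mesoderm and mesothelium, had nearly all of their UMIs here. The 10 splanchnic genes summed to 8.02, against 7.03 in sub-cluster 3 and 0.175 in sub-cluster 7. The leader Adamts18, a matrix protease gene, was at 1.77.

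Sub-clusters 4, 5, 6 and 7 shared a high level of cartilage genes, with list sums of 28.2, 35.2, 26.4 and 48.3, where sub-clusters 1 and 8 had 4.06 and 3.68. They differed in their regulators of position. Sub-cluster 4 (72 cells) was led by Tbx18 at 2.51 and Shox2, a homeobox gene of the proximal limb, at 4.73, with the forelimb gene Tbx5 at 1.47. Sub-cluster 5 (71 cells) was led by Tfap2b and Crym and had the most Col2a1, the collagen of cartilage, at 10.4, as well as most of the Acan. It had almost no Hox signal, with 0.672 for groups 1 to 5 and 0.0220 for groups 10 to 13. Sub-cluster 6 (68 cells) was led by Zic1, Chrm3, Uncx, Pax1 and Zic4, and Pax1 and Uncx are genes of the sclerotome, the part of the somite that forms vertebrae. Sub-cluster 7 (68 cells) had Hoxd13 at 2.09 and Hoxa13 at 1.39, the highest Sox9 at 11.1 and Sox6 at 13.7, and Bmpr1b, a BMP receptor of cartilage condensations, at 15.3.

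Sub-cluster 9 (43 cells) also carried 5′ Hox genes, in other proportions. Hoxd11 was at 2.98 and Hoxa11 at 1.63, where sub-cluster 7 had 2.12 and 0.462, and Hoxd13 at 0.381 and Hoxa13 at 0.486 were lower than there. Hoxa10 was at 3.76 here and 3.07 in sub-cluster 7. Osr2 was at 2.01 and Lmx1b, which specifies the dorsal limb, at 2.03. Hox groups 10 to 13 summed to 10.9 here and to 11.3 in sub-cluster 7, while Foxf1 gave 0 UMIs in both and in sub-cluster 1. Sub-cluster 1 (113 cells) was led by Il1rapl2, Hmx1, C1qtnf3, Sim1 and the guidance cue Ntn1, and Meis1 was at 8.82 there.

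Sub-cluster 8 (56 cells) had genes of facial mesenchyme, with Alx1 at 6.19, Msx1 at 7.21 and Pax3 at 3.20, and a Hox sum of 0.0653 for the 13 listed genes of groups 1 to 5. Hoxd1, which the list lacks, was at 0.235 there. Sub-cluster 3 (75 cells) was led by name by Pth, the parathyroid hormone gene, but 858 of its Pth UMIs came from 2 cells of F0_9. One of these cells held 632 Pth UMIs. The Chga and Ccl21a UMIs of this sub-cluster also lay in 2 cells of F0_9, whereas Barx1, a regulator of stomach and jaw mesenchyme, was spread over the suspensions at 4.85, 5.68, 0.939 and 6.39. Of the 10 splanchnic genes, 5 had a UMI in sub-cluster 3, whereas all 10 had one in sub-cluster 2.

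**Figure D2:**
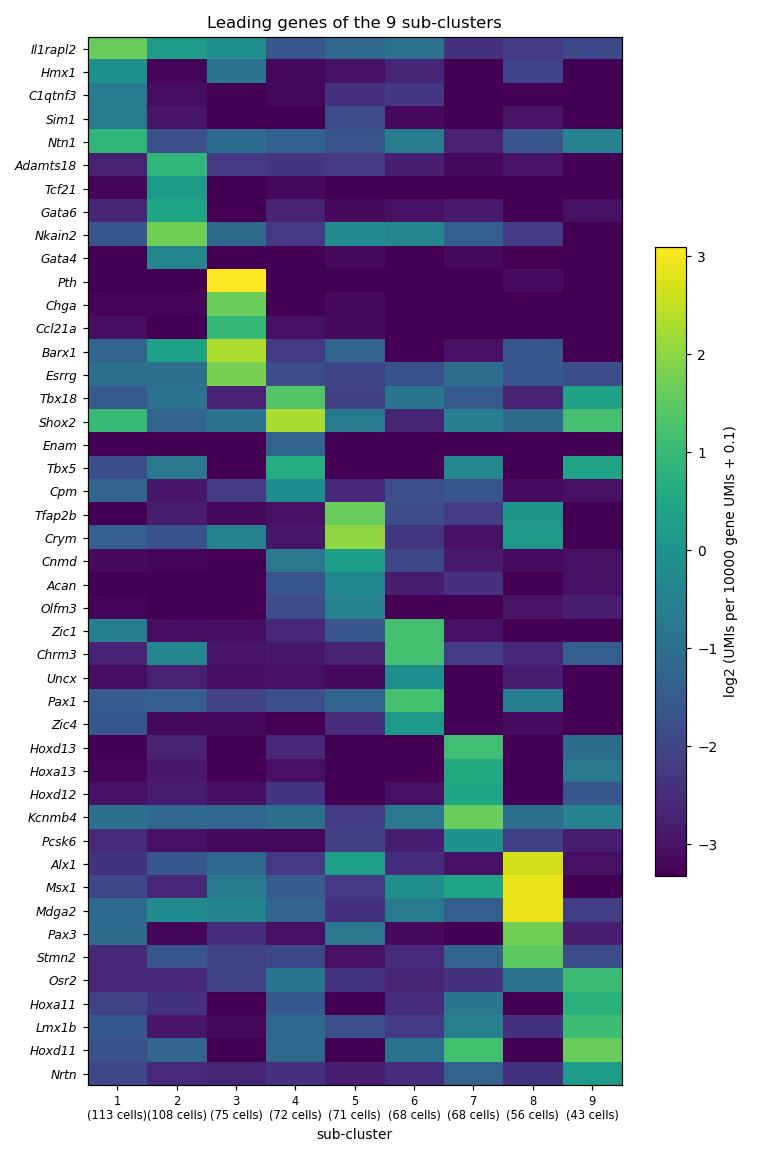
The 9 sub-clusters of Gut Mesenchyme/Amniotic Mesoderm cells by leading genes (rows, 5 per sub-cluster), with the colour giving log2 of the pooled level per 10000 gene UMIs after 0.1 was added, and the number of cells under each column. Tcf21, Gata6 and Gata4 were highest in sub-cluster 2, Hoxd13 and Hoxa13 in sub-cluster 7, Hoxa11 and Hoxd11 in sub-cluster 9 and Alx1 and Msx1 in sub-cluster 8.

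To ask whether founder embryos differed from F1 embryos within the type, the UMIs were summed per suspension and tested with edgeR. First, the share of all cells that fell into this type was 16.2% and 12.97% in the founders F0_8 and F0_9 and 7.40% and 10.1% in F1_1 and F1_mix. The Clopper-Pearson 95% intervals were 14.4% to 18.1%, 11.2% to 14.9%, 6.05% to 8.96% and 8.63% to 11.8%. They cover counting error only, since cells are not replicates, and not the spread between embryos. Both founders were above both F1 suspensions, by 5.82 percentage points on average, and the exact two-sided permutation test gave p = 0.333, the smallest that 2 suspensions against 2 allow. Because the type is defined by clustering on genes that differed between the generations, this share is a description of the annotation.

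Of 11098 genes tested, 141 were higher in founders (1.27%) and 92 lower (0.829%) at an adjusted p under 0.05 in the quasi-likelihood test of edgeR with Benjamini-Hochberg adjustment, and the median log2 fold change over all genes was -0.00. Unadjusted, 1352 genes had p under 0.05. Among the genes called, founders had more of the cartilage and 5′ Hox genes, and F1 suspensions more of some visceral mesoderm genes. The number of cells in the sub-clusters moved in the same way. Sub-cluster 7 had 39 and 25 cells in the founders against 1 and 3 in F1_1 and F1_mix, and sub-cluster 9 had 25 and 15 against 1 and 2. Sub-cluster 2 had 26 and 21 against 25 and 36, out of fewer cells in the F1 suspensions. The same genes set the sub-clusters, so these numbers are no separate result. Without sub-clusters 7 and 9, 181 genes were called, of which 132 were shared with the 233.

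Most of the 5′ Hox genes tested were higher in founders. Of 9 genes of groups 10 to 13 that were tested, 6 were higher in founders and 0 lower, with a median log2 fold change of 1.49. Hoxd13 gave 112 and 73 UMIs in F0_8 and F0_9, and 1 and 14 in F1_1 and F1_mix. Its log2 fold change was 2.95 (SE 0.41, adjusted p = 0.00490 in edgeR), and 92.5% of its UMIs were in sub-clusters 7 and 9. Its call was lost without F0_8 (adjusted p = 0.0545), and its log2 fold change was 2.32 without F1_1 and 5.41 without F1_mix. Hoxa10 was at 1.33, 1.09, 0.524 and 0.515 (log2 fold change 1.21, adjusted p = 0.000464). Hoxa13 gave 81, 49, 0 and 13 UMIs and did not pass (adjusted p = 0.0919). Hoxd12, Hoxd13 and Hoxa13 met the filter on low counts in both founders and in F1_mix but not in F1_1. The F1 suspensions alone would not have brought them into the test. The founder and F1 levels of Hoxd13, Hoxa10 and Hoxa13 did not overlap. The share of all tested genes that separated in this way was not counted. For this or any other set of genes, such separation therefore adds nothing to the calls.

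The calls lay towards one end of the Hox clusters. Of 32 Hox genes tested, 7 were called, all of them higher in founders, and they were Hoxa9, Hoxa10, Hoxa11, Hoxd10, Hoxd11, Hoxd12 and Hoxd13. None of 11 listed genes of groups 1 to 5 was called by edgeR or by DESeq2, 4 of them had an unadjusted p under 0.05, and their median was -0.28. Hoxd1, outside that list, was not called by edgeR either (0.46, adjusted p = 0.914). With no filter on low counts, edgeR called 2 of 13 as lower. None of the Hoxb or Hoxc genes passed either. The call of the list depended on few cells and on each founder. Without sub-clusters 7 and 9 only Hoxd11 was called among 6 of these genes (log2 fold change 1.21, adjusted p = 0.0316), and without F0_8 or without F0_9 there were 3 calls among 9. DESeq2 called 3 of the 9, Hoxa10, Hoxd11 and Hoxd12, and not Hoxd13 (adjusted p = 0.266). In Mesodermal Progenitor cells edgeR also called Hoxa10 (log2 fold change 0.58, adjusted p = 0.00715) and Hoxd12 (1.35, adjusted p = 0.0282) higher in founders. In Chondrocyte cells it called Hoxd10 (3.14, adjusted p = 0.00492). The rest of the 7 were not called there, and Hoxd10 was at -0.24 in Mesodermal Progenitor cells. None of the 7 was called in Myoblast/Cardiomyocyte cells.

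**Figure D3:**
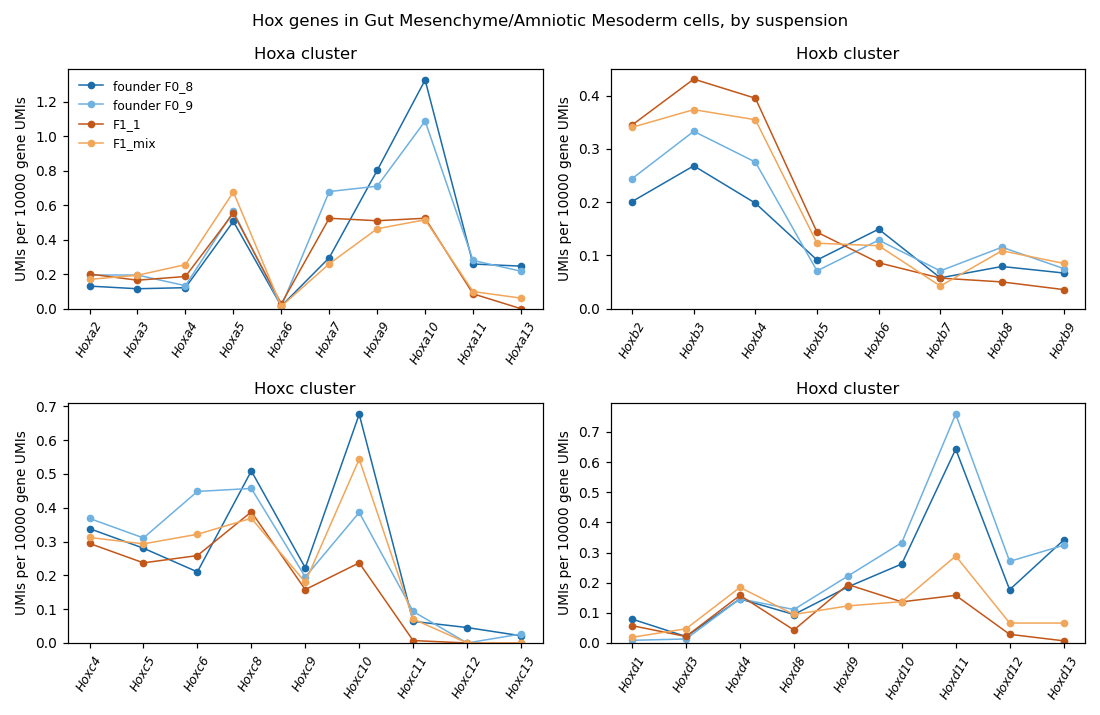
Levels of the Hox genes with at least 10 UMIs in Gut Mesenchyme/Amniotic Mesoderm cells (UMIs per 10000 gene UMIs), ordered from group 1 to group 13 within each of the 4 clusters, with 1 line per suspension. The founder lines lie above both F1 lines from Hoxa9 to Hoxa13 and from Hoxd10 to Hoxd13, and also at Hoxb6, Hoxb7, Hoxc4, Hoxc8, Hoxc9 and Hoxc13, and below both at Hoxa4, Hoxb2 to Hoxb5, Hoxd3 and Hoxd4. Of these, no Hoxb or Hoxc gene and none of groups 1 to 5 was called. The share of all genes that separate in this way was not counted. Hoxc13 and Hoxd3 had only 13 and 23 UMIs, and Hoxb7 was at 0.0579 in F0_8 against 0.0574 in F1_1.

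The cartilage list moved in the same direction. All 7 of its genes were tested, 6 were higher in founders and 0 lower, and the median log2 fold change was 0.75. Sox9, the master regulator of cartilage, was at 3.88, 3.89, 2.25 and 2.33 in F0_8, F0_9, F1_1 and F1_mix (log2 fold change 0.75, the median of the list, SE 0.07, adjusted p = 0.000249 in edgeR). Sox6 was at 4.11, 4.19, 1.72 and 2.44 (0.95, adjusted p = 0.0112), and Col2a1 at 3.81, 3.59, 2.78 and 2.43 (0.50, adjusted p = 0.00660). Both founders were above both F1 suspensions for each of these. Without sub-clusters 7 and 9, 3 of the 7 were called and Sox9 fell to 0.25 (adjusted p = 0.197). Without F0_8 there was 1 call, that of Sox9, and without F0_9 there were 3. In Chondrocyte cells Col2a1, Sox5 and Sox6 were also higher in founders, with Col2a1 at 0.88 (adjusted p = 0.000228), while Sox9 was at 0.62 (adjusted p = 0.620). In Mesodermal Progenitor cells none of the 4 was called, with Col2a1 at 0.56 (adjusted p = 0.185) and Sox9 at 0.40 (adjusted p = 0.0946).

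Some limb genes were higher in founders. Of 11 tested, 3 were higher in founders, and these were Lhx9, a factor of limb outgrowth, Lmx1b and Hoxd13, with a median of 0.83 for the list. Lmx1b gave 125, 79, 23 and 29 UMIs (log2 fold change 1.28, adjusted p = 0.00486). None was called once the cells of both sub-clusters were left out. Lhx9 then had a log2 fold change of -0.88 (adjusted p = 0.192). Without F0_8 there were also 0 calls, and DESeq2 called none of the 11 (adjusted p = 0.124 for Lmx1b and 0.380 for Lhx9).

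Some genes of visceral mesoderm were lower in founders. Of 9 splanchnic genes tested, Tcf21 and Gata4 were lower and 0 higher, with a median of -1.19. With no filter on low counts 7 of 10 were lower, and with sums thinned to equal depth 3 of 8. Tcf21, whose upstream sequence is given above, had 38, 21, 39 and 74 UMIs, which is 0.116, 0.0932, 0.280 and 0.350 per 10000 (log2 fold change -1.60, SE 0.24, adjusted p = 0.00307). Wt1 gave 37, 21, 40 and 108 UMIs (log2 fold change -1.99, adjusted p = 0.00283), and 78.6% of them were in sub-cluster 2. Adamts18 gave 57, 32, 107 and 139 (log2 fold change -2.16, SE 0.18, adjusted p = 0.000102). In Mesodermal Progenitor cells edgeR also called Adamts18 lower in founders (-1.58, adjusted p = 0.0228), and in Chondrocyte cells it was at 1.02 (adjusted p = 0.740). Tcf21, Wt1 and Gata4 were called in neither. In the present type the founder and F1 levels of Tcf21, Wt1 and Adamts18 were apart, while their raw counts were closer because founders had more cells. Without sub-clusters 7 and 9 all of these stayed called, with Tcf21 at -1.28 (adjusted p = 0.00843). Tcf21 and Adamts18 were called without any 1 suspension. Wt1 was lost without F0_8 (adjusted p = 0.0561), and Gata4 without F0_8, F0_9 or F1_mix and with DESeq2 (adjusted p = 0.142).

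Within sub-cluster 2 alone most of these calls were absent. There 9 of 6834 genes were called, 5 of them shared with the 233, and no splanchnic gene was among them. Tcf21 had a log2 fold change of -0.38 there (adjusted p = 0.843) and Gata4 -0.54 (adjusted p = 0.814), and the median of 9 splanchnic genes was -0.36. Adamts18 was still lower in founders, by a log2 fold change of -1.64 (adjusted p = 0.0226), as were Tmem108 and Frmd4b. Col25a1 and the stretch-activated channel gene Piezo2 were still higher. The cells there numbered 26, 21, 25 and 36, fewer than in the whole type.

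Several broad mesenchymal factors were also lower in founders. Of 32 tested, 6 were lower and 0 higher, with a median of -0.12, and they were Tcf21, Nr2f1, Pbx3, Foxp1, Meis1 and Foxp2. Meis1, a partner of Hox proteins, was at 3.91, 3.61, 4.72 and 5.32 (log2 fold change -0.44, adjusted p = 0.00685). Both founders lay below both F1 suspensions. In Mesodermal Progenitor cells edgeR also called Meis1 (-0.44, adjusted p = 0.0152) and Pbx3 (-0.46, adjusted p = 0.0125) lower, and none of the rest. In Chondrocyte cells Foxp2 was called higher in founders (0.51, adjusted p = 0.00558). Without sub-clusters 7 and 9, 2 of the 32 were called, Tcf21 and Foxp1. The list gave 2 lower and 2 higher calls without F0_8 and 2 lower and 1 higher without F0_9, and Meis1 was called in neither.

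The named markers of the type were not called by edgeR. Foxf1 had a log2 fold change of -1.59 (SE 0.33, adjusted p = 0.106), Postn 0.59 (adjusted p = 0.169), Tbx18 0.28 (adjusted p = 0.673) and Hand1 -0.83 (adjusted p = 0.740). The value of Foxf1 lay between -2.36 and -1.18 when 1 suspension was left out. Foxf1 was called by DESeq2, with no filter on low counts, with sums thinned to equal depth, and without F0_8 or without F0_9. Postn was called with no filter and without sub-clusters 7 and 9 (0.84, adjusted p = 0.0332). The widest fold changes were otherwise those of sparse genes. Atp6v1g3, a proton pump subunit, gave 19 and 11 UMIs in the founders and 0 in both F1 suspensions, and 96.7% of them were in sub-cluster 7. Slc14a2, a urea transporter gene, gave 43, 12, 1 and 1 UMIs, and Vwc2, a secreted BMP antagonist, 43, 29, 1 and 3. These 3 genes passed the filter on low counts through the founders alone, so their counts are given as a description with no test. Ctnna3, a catenin of cell junctions, gave 17, 3, 35 and 104 (-3.42, adjusted p = 0.0189), the 104 from 8 cells, and lay at -4.81 without F0_8 and -2.84 without F1_mix. In Mesodermal Progenitor cells edgeR also called Ctnna3 lower (-1.67, adjusted p = 0.0171), and in Chondrocyte cells it did not (-0.02, adjusted p = 0.993). Tnni1, which encodes a troponin, gave 8, 6, 17 and 39 UMIs, and Dsp, which encodes a desmosome protein, 4, 6, 9 and 29. Both genes passed the filter on low counts through the F1 suspensions alone, so their counts are also a description with no test.

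Other genes had more UMIs. Stmn2, a microtubule regulator best known from neurons, gave 192, 109, 8 and 20 UMIs (log2 fold change 2.74, SE 0.24, adjusted p = 0.000124), with 63.5% of them in sub-cluster 8. Cxcl14, a secreted chemokine, gave 324, 204, 12 and 48 (2.47, adjusted p = 0.00251), and in Chondrocyte cells its log2 fold change was 2.29 (adjusted p = 0.000219). In the present type it was at 3.42 without F1_mix. Both stayed called without any 1 suspension, but Cxcl14 was not called without sub-clusters 7 and 9 (2.68, adjusted p = 0.0541). Gdf5, a BMP ligand of forming joints, gave 59, 33, 6 and 4 UMIs. It passed the filter on low counts through the founders alone, so these counts are a description with no test. Igdcc3 was lower, with 48, 34, 70 and 107 UMIs (-1.78, adjusted p = 0.000293).

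**Figure D4:**
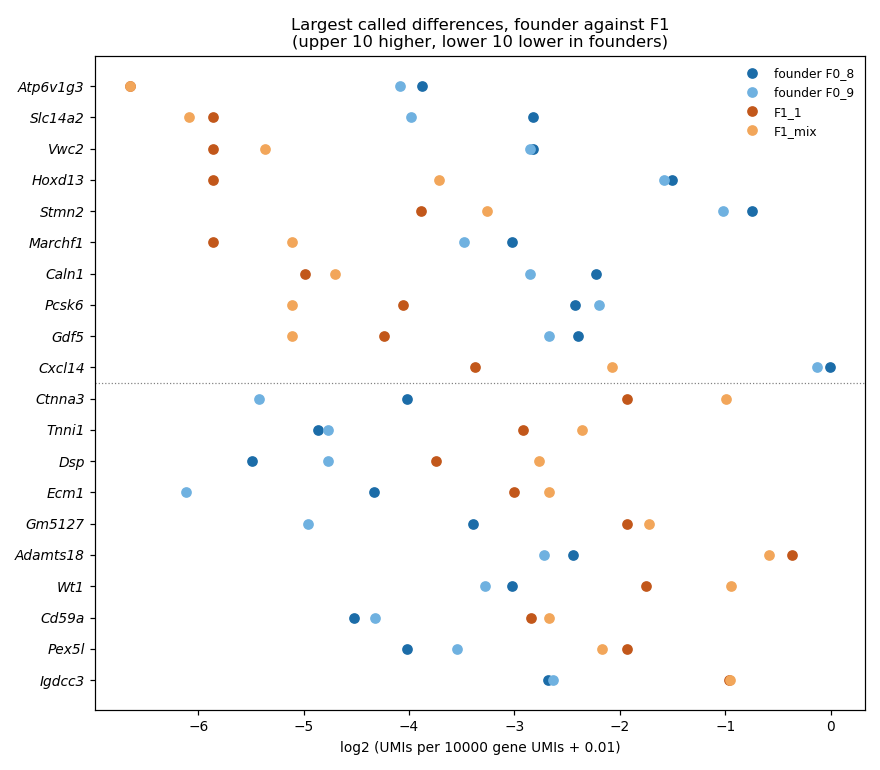
The 10 widest calls in each direction between founders and F1 in Gut Mesenchyme/Amniotic Mesoderm cells, as log2 of UMIs per 10000 gene UMIs after a small constant was added (written on the axis), with 1 point per suspension. Hoxd13, Stmn2 and Cxcl14 are higher in both founders, and Adamts18, Wt1 and Igdcc3 in both F1 suspensions. Atp6v1g3, Slc14a2, Vwc2, Marchf1, Caln1 and Gdf5 passed the filter on low counts through the founders alone. Tnni1, Dsp, Ecm1 and Cd59a passed it through the F1 suspensions alone. The points of these genes are a description with no test.

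Between 0 and 4 genes were called in each of the following lists, where 1.27% of all genes were higher and 0.829% lower. None of 11 Hedgehog genes, 12 FGF genes or 12 basement membrane genes was called by edgeR as used throughout or by DESeq2, with 6, 3 and 5 of them at an unadjusted p under 0.05. With no filter on low counts 3 Hedgehog genes were higher and 1 lower, and 3 basement membrane genes were lower. Without F1_mix 2 Hedgehog genes were higher, 1 FGF gene was higher and 1 lower, and 4 basement membrane genes were lower. In the BMP and TGF-beta list 1 of 21 was higher, Bmpr1b, and 1 lower, the decoy receptor gene Bambi. In the Wnt list Lef1 and Sfrp2 were higher and Wnt4 and Sfrp1 lower of 20. In the retinoic acid list the receptor gene Rarb was lower and Cyp26b1, which degrades retinoic acid, was higher of 10. Rarb was at 1.23, 0.989, 1.62 and 1.63 (log2 fold change -0.55, adjusted p = 0.0198). Of 12 genes of PDGF and IGF signalling, the ligand gene Pdgfa was higher, and the ligand gene Pdgfc and Igfbp3, which encodes an IGF binding protein, were lower. Of 18 division genes Ccnd1 was higher and Birc5 lower, with a median of -0.37. Of these calls, that of Bmpr1b held without any 1 suspension, and the others were lost without F0_8 or F0_9 or both. Those of Sfrp1, Wnt4, Igfbp3 and Ccnd1 were also lost without F1_1, and those of Sfrp2 and Pdgfa without F1_mix. DESeq2 called Bmpr1b and Lef1 and none of the others. Bmpr1b was not called without sub-clusters 7 and 9 (adjusted p = 0.880). In Mesodermal Progenitor cells edgeR also called Sfrp2 (1.12, adjusted p = 4.12e-06) and Cyp26b1 higher in founders and Sfrp1 lower. In Chondrocyte cells it called Sfrp2 higher and Bambi and Birc5 lower.

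Of 11 genes tested that respond to dissociation, 3 were called, 2 of them higher in founders and 1 lower, with a median of 0.23 over the list. Egr1 was at 1.40, 1.43, 0.696 and 0.860 and Jun at 4.65, 4.39, 3.08 and 3.34, both higher in founders, and Hsp90aa1 was lower. Their part in the other differences was not tested. Jun and Hsp90aa1 were lost without F0_8, and Hsp90aa1 also without F0_9. Egr1 was higher in founders in Mesodermal Progenitor cells as well (log2 fold change 1.25, adjusted p = 2.30e-05). Fitted in the same way, 120 of 10927 genes were called in Mesodermal Progenitor, 154 of 9105 in Chondrocyte and 14 of 11259 in Myoblast/Cardiomyocyte cells. These types share the suspensions, and differences between types were not tested.

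EGFP had been left out of the clustering by the authors, so its own counts did not enter the annotation, although genes that vary with it could. Nearly every cell carried it, with 2 of 674 cells, both in F0_8, lacking an EGFP UMI. Its level was 12.1 and 10.3 in F0_8 and F0_9 and 22.6 and 9.81 in F1_1 and F1_mix, so the suspension F1_1 stood apart from the other F1 suspension and the generations overlapped. Within a suspension, it was lower than in Chondrocyte cells in 4 of 4 suspensions, with ratios of 0.849, 0.819, 0.670 and 0.791 (mean log2 ratio -0.36, SD 0.15). The exact sign-flip permutation test, two-sided over the 4 suspensions, gave p = 0.125, the smallest it can give, and 0.375 after Benjamini-Hochberg adjustment over 3 comparisons.

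Against the other types EGFP ratios lay on both sides of 1. They were 1.12, 1.08, 0.933 and 1.04 for Mesodermal Progenitor (mean log2 ratio 0.06, SD 0.11, exact p = 0.375, adjusted 0.562) and 1.01, 1.10, 0.911 and 0.995 for Myoblast/Cardiomyocyte (exact p = 1, adjusted 1). Among the sub-clusters the EGFP level ran from 9.74 to 14.3 in F0_8, from 7.29 to 12.4 in F0_9, from 17.7 to 32.5 in F1_1 and from 6.29 to 15.6 in F1_mix. Both ends of the range in F1_mix came from sub-clusters with 3 cells or fewer there, and the top in F1_1 from 1 cell.

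**Figure D5:**
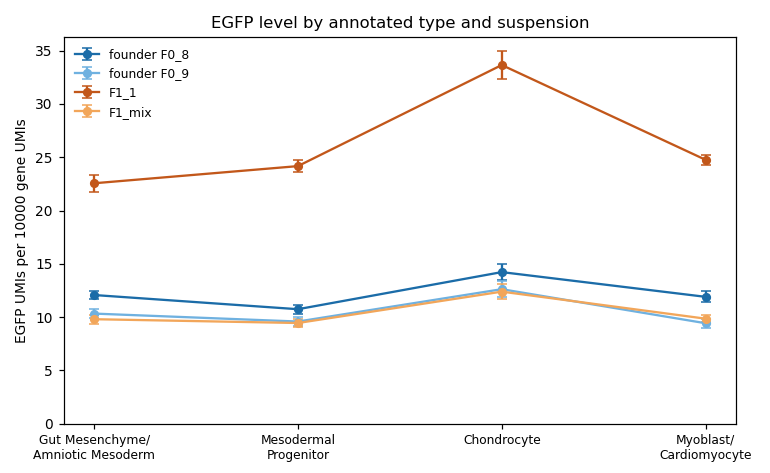
EGFP level (UMIs per 10000 gene UMIs, axis from 0) in Gut Mesenchyme/Amniotic Mesoderm, Mesodermal Progenitor, Chondrocyte and Myoblast/Cardiomyocyte cells, with 1 line per suspension and exact Poisson 95% intervals. F1_1 lies above the other suspensions in every type shown, and Chondrocyte is the highest of the 4 types in each suspension.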

How the data were processed

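The authors aligned the reads to GRCm38 with the EGFP sequence added and deposited UMI counts from Cell Ranger (7.2.0 per the file headers, while the methods text names an earlier release), 1 matrix per suspension, and a cell table with the annotation used here. The authors removed doublets with DoubletFinder and left EGFP out of clustering. The deposited counts are not corrected for ambient RNA. Suspensions were grouped from the series design text. Oligo counts were not used.

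Counts were summed per suspension and type (Python 3.11.15, pandas 2.3.3, scipy 1.17.1). Levels were compared on log2 after adding 0.1. Founders and F1 were compared with the quasi-likelihood test of edgeR 4.0.16 (R 4.3.3, filterByExpr, TMM), fitted over all genes, and DESeq2 1.42.0 was an alternative. The edgeR and level scripts were tested on simulated data. Sub-clusters came from scanpy 1.11.5 and igraph 0.11.9 (2000 variable genes without EGFP and division genes, 20 components, 15 neighbours, Leiden resolution 0.6).

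Members and lists were chosen with earlier results of these data known. Some list members are not reported here and were left out of their lists. Named genes were the label markers, the widest 12 higher and 8 lower against 3 types, the widest 8 against all types, the 10 widest calls in each direction, the 5 leaders of each sub-cluster, and list members. Other genes named, the genes shown with sequence, and the alternatives without sub-clusters 7 and 9 or with sub-cluster 2 alone were chosen after their values were seen.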

Additional observations from a re-analysis of the deposited data

How the results depend on the processing

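The number of genes called between founders and F1, 233 by edgeR, was 114 with the Wald test of DESeq2, 608 with no filter on low counts and 9 in sub-cluster 2 alone. It ranged from 76 to 415 when 1 suspension was left out, being 76 without F0_8, 116 without F0_9, 348 without F1_1 and 415 without F1_mix. In such fits the lone suspension is assumed to vary like the others. No paired analysis was possible because the suspensions of the groups came from different embryos. In sub-cluster 2 alone, log2 fold changes turned sign for Foxp2 (0.25), Foxp1 (0.016), Meis1 (0.077), Birc5 (0.57), Hand1 (0.58), Bmpr1b (-0.33), Col2a1 (-0.17), Sox5 (-1.23), Sox6 (-0.28), Lef1 (-0.79) and Tbx18 (-1.67), none of them called there. Lhx9 turned to -0.88 without sub-clusters 7 and 9 and Tbx18 to -0.025 without F0_9. Hand1 lay between -2.08 without F0_8 and 0.56 without F1_mix.

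Thinning cells to 5000 gene UMIs left 528 genes higher and 223 lower than the 3 types, and Tmem97 turned to 0.10. With 0.5 added in place of 0.1, 0 genes were 2-fold higher and 88 lower against Mesodermal Progenitor, 5 and 6 against Chondrocyte, and 39 and 26 against Myoblast/Cardiomyocyte. The mean log2 EGFP ratio to Myoblast/Cardiomyocyte, 0.00, lay between -0.0404 and 0.0485 when 1 suspension was left out. Without sub-clusters 7 and 9, 10 of 28 single-gene values against the other types moved by more than their spread over suspensions and none changed sign; over all compared types Col25a1 went from 0.57 to 0.0086, Ltbp1 from 0.33 to 0.084 and Ssbp2 from 0.32 to 0.22 (log2, least favourable suspension). Other settings of the clustering gave 6 to 13 sub-clusters, with an adjusted Rand index against the grouping used of 0.473 with 10 principal components, 0.641 with division genes kept, and 0.742 and 0.753 at the other resolutions. The cause of these changes was not tested.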
